A study of Mus musculus with 4 samples.

Results

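Complement and coagulation factors were read as a group of 38 genes, 18 of the complement system and 20 of blood coagulation and fibrinolysis, out of 30439 genes represented on the arrays. A gene belonged to the group if its symbol was on a fixed list of these factors and a gene probe of the array carried that symbol. The list was matched by 50 probes, and all 38 genes were well above background on all 4 arrays.

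Complement and coagulation are cascades of plasma proteases, most of which are made by hepatocytes and secreted as inactive precursors. Complement starts through the classical, lectin or alternative pathway, each of which leads to cleavage of C3 and then to the terminal pathway that forms pores in membranes. Coagulation runs from the contact system and the vitamin K-dependent factors to thrombin and the fibrin clot, and is held in check by anticoagulants and by fibrinolysis, while a few complement genes such as those of C1q are made mainly by macrophages and Cfd mainly by adipocytes.

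RNA came from livers of male C57BL/6J mice on a high-fat diet (HFD), 24 weeks by the labels, and 4 single-color Agilent arrays were available. Drp1LiKO mice carried Alb-Cre with both Drp1 alleles floxed, so that the gene for dynamin-related protein 1, which divides mitochondria, was targeted in albumin-expressing cells, and control (Cont) mice were Drp1flox/flox littermates without Cre. The groups were Cont, Drp1LiKO, Cont refed and Drp1LiKO refed, with 1 array each. The sources used here do not say whether an array holds the RNA of a single mouse.

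The labels of the refed livers name refeeding, which the series describes as 4 h of feeding after a fast of 17 h. Neither of the remaining 2 livers has a feeding state in its labels. The series' own description gives the fast and the refeeding for the mice with no exception, which goes against a fasted state, while the study treats fasted and refed livers as separate conditions. These 2 livers were read as fasted on that ground, and their raw data also belong to earlier submissions, so each value called fasted rests on a reading that the sources do not settle. With 1 array per group there is no replicate, and a difference between 2 arrays has no p-value.

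A level is the log2 of the background-subtracted signal relative to the 75th percentile of the array's gene spots, and a difference is Drp1LiKO minus Cont on that scale. Its standard error (SE) comes from the scanner's error model, which sets a multiplicative error of 10% and covers measurement only, not mice. For every member except Cfd it was 0.20 in both feeding states. The authors' quantile-normalized values are given beside it, because the members' probes were bright and the scales part there. A difference was called at 2-fold or more.

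The 4 arrays were on 1 slide and in 1 scan, and between 48.7% and 58.2% of their gene spots were well above background. The 75th percentile was at a signal between 357 and 722 and was higher on the Drp1LiKO array of each pair. Dnm1l, the gene for Drp1, differed by -0.21 ± 0.20 (SE) in fasted and -0.12 ± 0.20 in refed livers on its single probe, whose position relative to the floxed exons is not given in the sources used here, so it checks no label. All 7 hepatocyte markers, among them Alb, were well above background on all arrays. Their median difference was -0.16 in fasted livers, with 5 below and 2 above 0, and -0.27 in refed livers, with 4 below and 3 above. With the authors' values these medians were 0.20 and -0.09. Alb itself was at -0.52 and -0.55, and at 0.07 and -0.09 with the authors' values.

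Of the 38 members, 20 had probes in the brightest 10% of genes, where the mean signal was at least 23.9 times the 75th percentile. The members' mean signals ran from 1.35 to 527 times the 75th percentile, and no spot was saturated. A probe's brightness depends on its sequence too, so members were compared only with themselves across arrays.

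**Figure D1:**
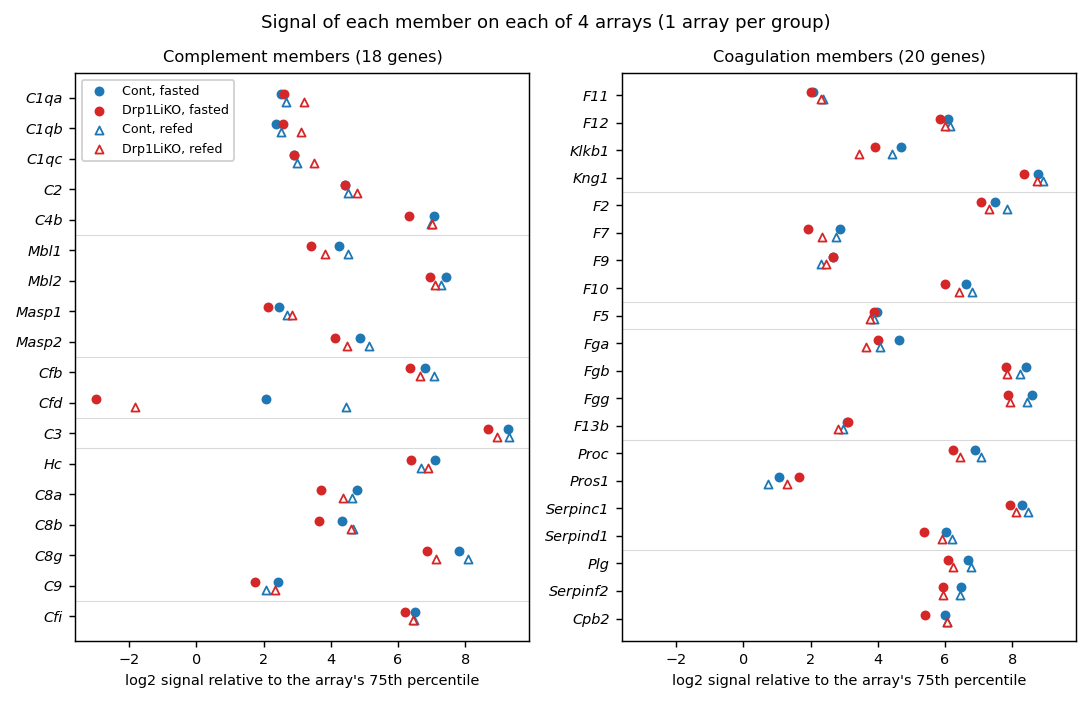
Log2 signal of each of the 38 members over the 75th percentile of the array, with circles for fasted and triangles for refed livers, blue for Cont and red for Drp1LiKO. Grey lines separate the roles. Cfd is the member whose 4 points lie farthest apart, from -2.99 to 4.45, while most others stay within about 1 unit.

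In fasted livers 32 of the 38 members (84.2%) were below 0 in the difference between Drp1LiKO and Cont, with a median of -0.58, beside 61.3% of all genes measured on every array and 87.3% of the brightest 10%. With the authors' values 25 of 38 (65.8%) were below 0, beside 51.5% and 48.3%. At 2-fold 0 of 38 were called higher and 2 lower. Of all genes, 14447 were well above background on every array, and of these 2.75% were called higher and 3.31% lower. In the brightest 10%, where most members lie, these shares were 0.418% and 3.4%. The 2 members called lower were Cfd and C8a.

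In refed livers 28 of 38 (73.7%) were below 0 with a median of -0.22, beside 57.8% of all genes and 69% of the brightest 10%, and with the authors' values 21 of 38 (55.3%), beside 50.7% and 46.1%. At 2-fold 0 were called higher and 1, Cfd, lower. The background shares were 3.12% higher and 3.99% lower over all these genes, and 0.478% and 2.51% in the brightest 10%. The members called at 2-fold were therefore few in each feeding state, and their share was close to the background.

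At 1.5-fold 19 members were lower and 1 higher in fasted livers, against 13.2% and 7.69% of all genes and 18.3% and 1.01% of the brightest 10%. In refed livers 6 were lower and 1 higher, against 14.6% and 8.99%, and 13% and 1.73%.

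The smaller differences depended on the scale. The median of all 14447 genes was itself at -0.12 in fasted and -0.08 in refed livers, and it was at -0.01 in both with the authors' values. Relative to that median, the members' median was -0.46 in fasted and -0.14 in refed livers, and -0.18 and -0.02 with the authors' values. In the brightest 10% the median of all genes was -0.31 in fasted livers and 0.00 with the authors' values. Bright probes as a whole were thus lower on the fasted Drp1LiKO array only relative to its 75th percentile. That percentile was at a signal of 722 there and 461 on the fasted Cont array, so the scaling itself enters these differences.

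By measurement error alone, 24 of 38 members were below 0 by over 2 SEs in fasted livers and 1, Pros1, was above, against a background of 22.3% below and 11.4% above. On the authors' scale 11 were below and 1 above, against 16.4% and 13.8%. In the brightest 10% 36.8% of genes were below by this rule, and 16 of the 20 members there were.

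In refed livers 13 members were below 0 by over 2 SEs and 4 above, against 22.1% and 13.1%. The authors' values put 6 below and 5 above, against 17.4% and 14.8%. In the brightest 10% 25.9% of genes were below, and 8 of the 20 members there were.

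In both feeding states 12 members were below 0 by over 2 SEs, against 13% of genes, and 1 above, against 6.37%. With the authors' values 5 members were below in both states, Cfd, C8g, Klkb1, Mbl1 and Masp2, against 9.14%, and 1 above, Pros1, against 7.34%. These 6 genes passed on both scales in both pairs of arrays. The pairs share no array, but they lie on 1 slide and the authors' values were normalized over all 4 arrays together. The share of all genes that passed on both scales was not counted, so no background stands beside the 6.

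**Figure D2:**
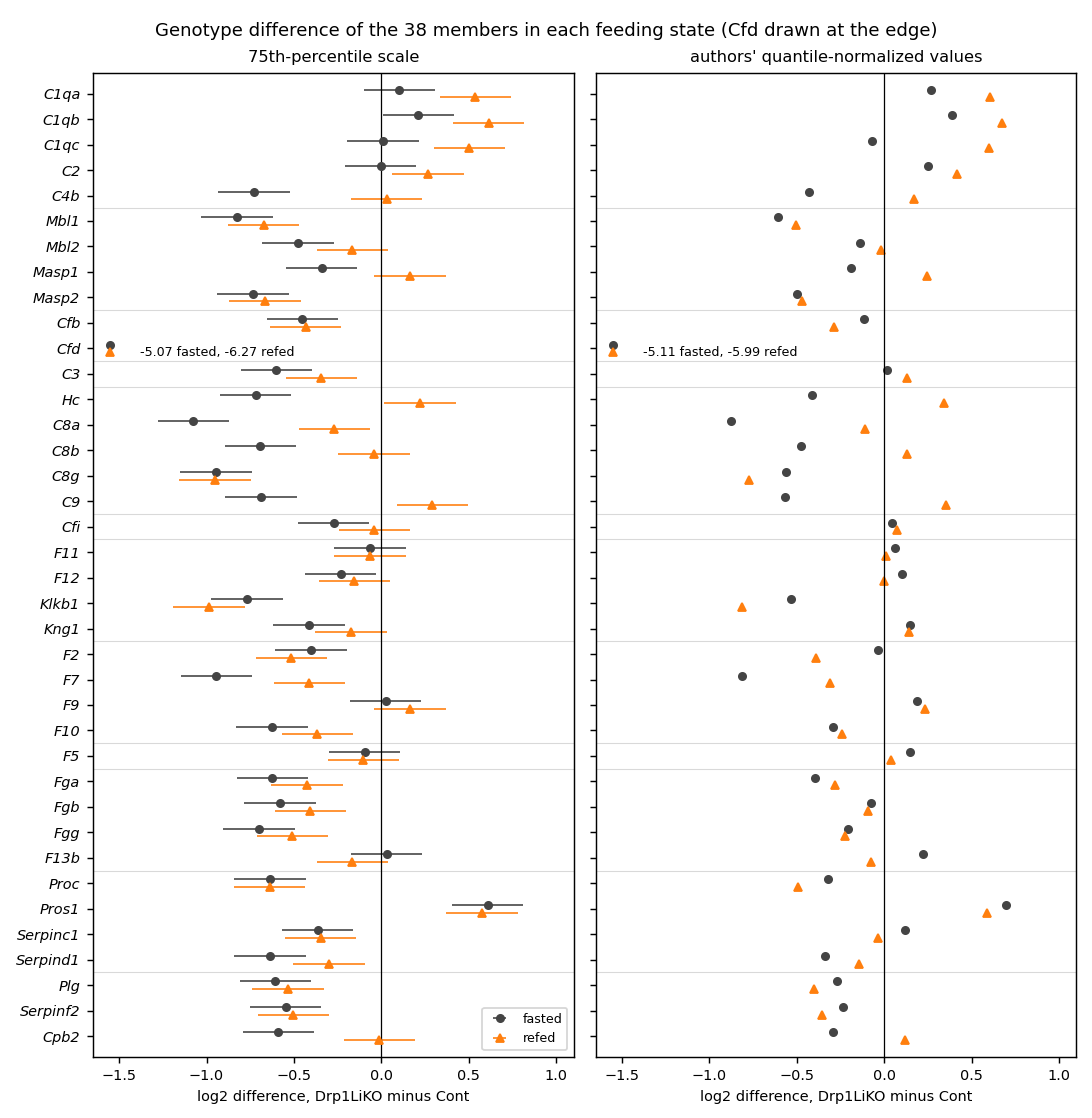
Log2 difference (Drp1LiKO minus Cont) of each member in fasted (dark circles) and refed livers (orange triangles), on the 75th-percentile scale with bars of 1 measurement SE (left) and with the authors' quantile-normalized values (right). Cfd is drawn at the edge with its values. Most points move to the right with the authors' values, and Cfd, C8g, Klkb1, Mbl1 and Masp2 stay left of 0 while Pros1 stays right of it.

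Cfd encodes factor D, also called adipsin, the protease that cleaves factor B in the alternative pathway. Its level was 2.08 in the fasted Cont and -2.99 in the fasted Drp1LiKO liver, and 4.45 in the refed Cont and -1.83 in the refed Drp1LiKO liver. Both Drp1LiKO livers thus lay below both Cont livers. The difference was -5.07 ± 0.22 (SE, 33.6-fold) in fasted and -6.27 ± 0.21 (SE, 77.3-fold) in refed livers, and -5.11 and -5.99 with the authors' values.

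The whole result rests on a single probe, shown here because it carries the largest difference of the group. It lies on the plus strand of the mm9 build at chr10:79355302-79355361.

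Cfd probe: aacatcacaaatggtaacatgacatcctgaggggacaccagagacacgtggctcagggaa

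Of 9 adipocyte markers, Adipoq, Lep, Plin1 and Retn were not well above background on any array. Ucp1, the uncoupling protein of brown fat, was well above background on the fasted Cont array alone, where its level was at least 1.83 above that of the fasted Drp1LiKO liver. Fabp4 and Lpl, which differed by 0.01 and 0.93 in fasted and by 0.31 and 1.45 in refed livers, did not go down with Cfd. Cidea, a lipid droplet protein, and Cox8b, a subunit of cytochrome c oxidase, did, with differences of -3.12 and -4.08 in fasted and -6.10 and -2.50 in refed livers. Of the 9 markers 3 were thus called lower in fasted livers with Cfd, namely Cidea, Cox8b and Ucp1. Between the 2 Cont livers only Cidea of these went with Cfd. Refed minus fasted, Cfd was at 2.37 and Cidea at 2.21, while Cox8b was at -1.74 and Ucp1 was lower by at least 0.62. Scaled to the 75th percentile of each array, the summed signal of the 9 was 9.08 and 23.9 times that percentile in the fasted and refed Cont livers and 4.81 and 6.64 times in the Drp1LiKO livers. Cidea was the brightest of the 9 in both Cont livers, so the sum largely follows this gene. Its levels were 2.08 and 4.29 in the fasted and refed Cont livers and -1.04 and -1.81 in the Drp1LiKO livers. Whether adipose tissue in the samples had a part in the Cfd values was not tested.

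Cfb encodes factor B, which factor D cleaves, and its levels were 6.80 and 6.35 in the fasted and 7.08 and 6.65 in the refed Cont and Drp1LiKO livers. It differed by -0.45 and -0.43, and by -0.12 and -0.29 with the authors' values. The difference of Cfb was thus a small part of that of Cfd in both feeding states.

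C1qa, C1qb and C1qc encode the chains of C1q, which binds antibody complexes and starts the classical pathway. In fasted livers they differed by 0.10, 0.21 and 0.01, each within 2 SEs of 0. In refed livers they were higher in the Drp1LiKO liver by 0.54 ± 0.20, 0.61 ± 0.20 and 0.50 ± 0.20 (SE), that is 1.45-, 1.53- and 1.42-fold. The same held with the authors' values, at 0.61, 0.68 and 0.60.

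The level of C1qb, for example, was 2.36 in the fasted Cont, 2.57 in the fasted Drp1LiKO, 2.51 in the refed Cont and 3.12 in the refed Drp1LiKO liver. The refed Drp1LiKO liver had the highest level of each of the 3 genes. They lie next to each other on chromosome 4, their probes 9129 and 6584 bases apart in mm9.

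All 8 markers of Kupffer cells and macrophages, the resident and recruited macrophages of the liver, were above 0 in refed livers, with a median of 0.56. In fasted livers 5 of 8 were, with a median of 0.17. Vsig4, a complement receptor of Kupffer cells, differed by 0.16 in fasted and 1.04 in refed livers, and Marco by 1.65 and 1.61. Scaled in the same way, their summed signal was 95.1 and 109 times the 75th percentile in the fasted and 106 and 185 times in the refed Cont and Drp1LiKO livers. The part of macrophage content in the C1q values was not tested, and in bulk liver more cells of a type and more RNA per cell cannot be told apart.

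**Figure D3:**
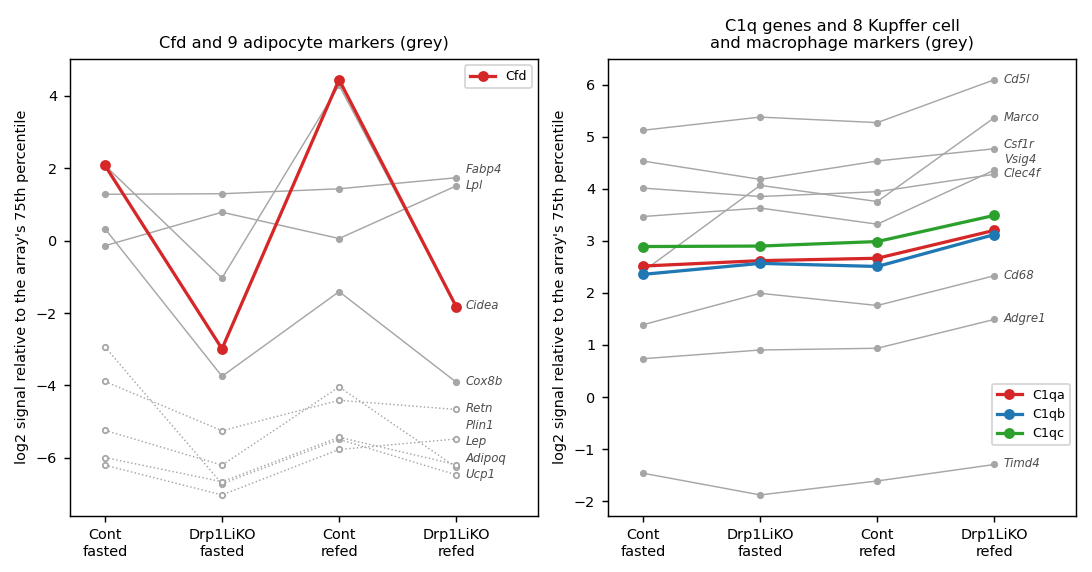
Log2 level on the 4 arrays of Cfd with 9 adipocyte markers (left) and of the C1q genes with 8 macrophage markers (right). Lines join the points of a gene and stand for no time course, and dotted lines with open points are genes not well above background on every array. Cfd, Cidea and Cox8b drop on both Drp1LiKO arrays, and the C1q genes are highest on the refed Drp1LiKO array.

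C2 and C4b encode the parts of the convertase that cleaves C3 in the classical and lectin pathways. C2 differed by 0.00 in fasted and 0.27 in refed livers. C4b had levels of 7.06 and 6.33 in the fasted and 6.97 and 7.01 in the refed Cont and Drp1LiKO livers. On this scale the fasted Drp1LiKO liver stood below the other 3. With the authors' values the refed Cont liver was as low, as both were at -0.43 to -0.44 relative to the fasted Cont liver. The genotype difference of C4b was -0.73 ± 0.20 (SE) in fasted and 0.03 ± 0.20 in refed livers, and -0.43 and 0.17 with the authors' values.

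The lectin pathway begins with lectins that bind microbial sugars and with their proteases. Mbl1, a mannose-binding lectin, had levels of 4.24 and 3.42 in the fasted and 4.51 and 3.83 in the refed Cont and Drp1LiKO livers. It differed by -0.83 and -0.67, and by -0.61 and -0.50 with the authors' values. Mbl2, the other mannose-binding lectin, differed by -0.48 and -0.17, and by -0.14 and -0.02 with the authors' values.

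Masp2, the protease that cleaves C4 and C2, differed by -0.73 and -0.67, and its other 2 probes gave -0.59 and -0.46 in fasted and -0.62 and -0.28 in refed livers. Masp1, the protease that activates it, differed by -0.34 and 0.16 on its brightest probe. Its other 2 probes gave -0.14 and 1.09 in fasted and 0.44 and 0.77 in refed livers. The probes thus disagreed in direction in fasted livers, while all 3 were above 0 in refed livers, the one taken for the gene within 2 SEs of 0.

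C3, on which all 3 pathways converge, had levels of 9.26 and 8.66 in the fasted and 9.29 and 8.95 in the refed Cont and Drp1LiKO livers. It differed by -0.60 in fasted and -0.34 in refed livers on the 75th-percentile scale and by 0.02 and 0.13 with the authors' values, so its direction turned with the scale. Its probe is spotted repeatedly on the array, and the SD over 9 spots was at most 0.05 on each array. Cfi, the protease that inactivates cleaved C3 and C4, differed by -0.27 and -0.04, and by 0.05 and 0.07 with the authors' values.

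In the terminal pathway all 5 members, Hc, which encodes C5, C8a, C8b and C8g for the chains of C8, and C9, the pore-forming protein, were below 0 by over 2 SEs in fasted livers. Their median was -0.72 there and -0.04 in refed livers, and -0.56 and 0.13 with the authors' values. C8g was as far below 0 after refeeding, so the gap between the pairs was that of the other 4.

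Some markers of blood cells, S100a8, S100a9 and Hba-a1, were also higher in the refed than in the fasted comparison, while Ly6g was not. Of 4 neutrophil markers S100a8 differed by -1.04 in fasted and 0.94 in refed livers and S100a9 by -1.11 and 1.04, while Ly6g was at 0.08 and 0.02 and Mpo was well above background on 1 array. The summed signal of the 4 was 4.14 and 2.29 times the 75th percentile in the fasted and 4.62 and 8.70 times in the refed Cont and Drp1LiKO livers. Hba-a1, a hemoglobin chain and the red cell marker measured, differed by -0.79 and 0.05. Their part in the values of the terminal members was not tested.

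Hc had levels of 7.10 and 6.38 in the fasted and 6.68 and 6.90 in the refed Cont and Drp1LiKO livers, and C9 had levels of 2.43 and 1.74, and 2.06 and 2.35. Hc differed by -0.72 ± 0.20 in fasted and 0.22 ± 0.20 (SE) in refed livers, and C9 by -0.69 ± 0.20 and 0.29 ± 0.20. In both genes the Drp1LiKO liver was the lower of the fasted pair and the higher of the refed pair, with the refed difference within 2 SEs of 0.

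C8b differed by -0.69 and -0.04. C8a had levels of 4.77 and 3.69 in the fasted and 4.64 and 4.37 in the refed pair, and differed by -1.07 ± 0.20 (SE, 2.11-fold) and -0.27 ± 0.20. Its second, dimmer probe differed by -0.41 and 0.36, so the call at 2-fold rests on the brighter probe, while both probes were lower in the fasted than in the refed comparison. The pair of probes is shown because they disagree in size, and they lie on the minus strand of mm9 at chr4:104488479-104488538 and chr4:104499275-104499334.

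C8a brighter probe: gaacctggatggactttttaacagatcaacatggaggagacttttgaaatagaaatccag

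C8a dimmer probe: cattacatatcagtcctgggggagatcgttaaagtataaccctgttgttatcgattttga

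C8g, which encodes the small chain of C8 and lies on another chromosome than C8a and C8b, had levels of 7.81 and 6.86 in the fasted and 8.07 and 7.12 in the refed pair. It differed by -0.95 ± 0.20 (SE, 1.93-fold) in both feeding states, and by -0.56 and -0.77 with the authors' values. Its second probe gave -0.76 and -0.91. C6, another component of the pore that is not among the 38, differed by -0.01 and -0.04.

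RefSeq promoter windows of GRCm38.p6, from 250 bases before to 50 after a gene's start, were at hand for 29 of the 38 members. The letters GTTAAT, searched on both strands as the core of the site of hepatocyte nuclear factor 1, were present in those of 7 members, C8a, C8b, F13b, F2, Fga, Fgb and Hc, that is 24.1% of 29, and in those of 8.24% of all 27025 genes with a window. The windows of Hc, C8a and C8b are shown as those of the terminal members that hold the letters, with the match on either strand in capitals. Of the other 4 genes with the letters, Fgb too was below 0 by over 2 SEs in fasted but not in refed livers, where its -0.41 fell just short. Fga was below by over 2 SEs in both feeding states, F2 in refed livers alone and F13b in neither. C9 and C3, for example, were below by over 2 SEs in fasted livers alone without the letters. The windows shown were chr2:35061363-35061662 and chr4:104876349-104876648 on the minus strand and chr4:104766067-104766366 on the plus strand.

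Hc promoter: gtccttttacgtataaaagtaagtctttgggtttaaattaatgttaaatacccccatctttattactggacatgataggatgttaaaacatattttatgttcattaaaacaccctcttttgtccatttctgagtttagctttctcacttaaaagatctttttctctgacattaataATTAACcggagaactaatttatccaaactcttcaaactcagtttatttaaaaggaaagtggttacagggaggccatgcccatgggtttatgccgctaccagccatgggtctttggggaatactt

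C8a promoter: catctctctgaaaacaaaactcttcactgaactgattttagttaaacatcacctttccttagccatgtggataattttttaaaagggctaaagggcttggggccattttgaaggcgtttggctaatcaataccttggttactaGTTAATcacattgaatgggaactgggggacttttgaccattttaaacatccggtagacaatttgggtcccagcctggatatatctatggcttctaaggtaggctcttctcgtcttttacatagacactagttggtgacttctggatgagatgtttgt

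C8b promoter: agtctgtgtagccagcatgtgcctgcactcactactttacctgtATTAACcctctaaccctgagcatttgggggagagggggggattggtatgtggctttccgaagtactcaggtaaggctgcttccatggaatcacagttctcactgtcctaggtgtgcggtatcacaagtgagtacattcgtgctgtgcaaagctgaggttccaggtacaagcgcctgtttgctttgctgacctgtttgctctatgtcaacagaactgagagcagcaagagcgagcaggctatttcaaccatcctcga

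Each of these windows held 1 match, which overlapped none of the other letters searched. These were TTGCNNAA, as found in sites of C/EBP factors, present in the windows of 9 members including C9, Klkb1 and Fgb and in those of 12.2% of all genes, and AGGTCA, as found in sites of nuclear receptors, present in those of 12 members and in those of 18.1% of all genes. A match describes letters only.

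The contact system starts coagulation on charged surfaces. Klkb1, which encodes plasma prekallikrein, had levels of 4.68 and 3.91 in the fasted and 4.43 and 3.44 in the refed Cont and Drp1LiKO livers. It differed by -0.77 ± 0.20 (SE, 1.7-fold) and -0.99 ± 0.20 (SE, 1.98-fold), and by -0.53 and -0.81 with the authors' values. F11, the gene of factor XI, lies beside it on chromosome 8 with probes 28240 bases apart, and differed by -0.07 in both feeding states.

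F12, the protease that activates prekallikrein, differed by -0.23 and -0.15, and Kng1, the kininogen that carries it, by -0.41 and -0.17. With the authors' values F12 was at 0.10 and 0.00 and Kng1 at 0.15 and 0.14, so neither kept a direction over the scales.

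The vitamin K-dependent factors are proteases whose glutamates must be carboxylated before they can bind membranes. F7, which starts coagulation with tissue factor, had levels of 2.88 and 1.93 in the fasted and 2.75 and 2.34 in the refed pair, and differed by -0.94 ± 0.20 (SE, 1.92-fold) and -0.41 ± 0.20. Its second probe, whose mm9 position overlaps that of the first, gave -0.89 and -0.45. F2, the gene of prothrombin, differed by -0.40 and -0.52, and by -0.04 and -0.39 with the authors' values, while F9 was at 0.03 and 0.16.

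F10 differed by -0.63 and -0.37, and by -0.29 and -0.24 with the authors' values. Its second probe gave -0.81 and -0.10. The probes are shown because the second is made almost wholly of a repeat of a and g, and the first, brighter probe was taken for F10. They lie on the plus strand of mm9 at chr8:13055774-13055833 and chr8:13056223-13056290.

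F10 first probe: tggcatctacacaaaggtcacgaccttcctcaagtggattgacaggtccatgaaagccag

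F10 second probe: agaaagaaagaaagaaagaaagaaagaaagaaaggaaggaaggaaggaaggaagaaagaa

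Vkorc1, the vitamin K reductase that these factors depend on, differed by -0.85 and -0.95, and Ggcx, the carboxylase, by -0.27 and -0.45. F5, the cofactor that speeds the activation of prothrombin, differed by -0.10 in both feeding states and by 0.15 and 0.04 with the authors' values.

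Fga, Fgb and Fgg encode the chains of fibrinogen and lie side by side on chromosome 3. They differed by -0.62, -0.58 and -0.70 in fasted and by -0.43, -0.41 and -0.51 in refed livers. The authors' values gave -0.39, -0.08 and -0.21, and -0.28, -0.09 and -0.22, so all 6 kept their direction but only those of the 75th-percentile scale passed 2 SEs, in 5 of 6 cases.

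The level of Fgg was 8.57 in the fasted Cont, 7.87 in the fasted Drp1LiKO, 8.45 in the refed Cont and 7.94 in the refed Drp1LiKO liver. On this scale both Cont livers thus lay above both Drp1LiKO livers. That order did not hold with the authors' values. Relative to the fasted Cont liver, these were -0.21 in the fasted Drp1LiKO and -0.31 in the refed Cont liver. The second probe of Fga agreed in fasted livers, at -0.72, and not in refed livers, at 0.13. F13b, the carrier chain of the factor that crosslinks fibrin, differed by 0.03 and -0.17.

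Among the anticoagulants Pros1 stood apart. It encodes protein S, the cofactor of activated protein C, and had levels of 1.05 and 1.66 in the fasted and 0.72 and 1.30 in the refed Cont and Drp1LiKO livers. It was higher in Drp1LiKO livers by 0.61 ± 0.20 (SE, 1.52-fold) and 0.58 ± 0.20 (SE, 1.49-fold), and by 0.69 and 0.59 with the authors' values. It was read from 1 probe, on the plus strand of mm9 at chr16:62928674-62928733, shown as the carrier of the group's largest difference above 0 in fasted livers.

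Pros1 probe: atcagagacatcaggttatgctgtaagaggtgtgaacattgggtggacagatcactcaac

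Proc, the gene of protein C itself, went the other way, with levels of 6.88 and 6.25 in the fasted and 7.08 and 6.44 in the refed pair. It differed by -0.64 in both feeding states, and by -0.32 and -0.49 with the authors' values. Serpinc1, which encodes antithrombin, differed by -0.36 and -0.35, and by 0.12 and -0.04 with the authors' values. Serpind1, the gene of heparin cofactor II, differed by -0.64 and -0.30.

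In fibrinolysis Plg, the gene of plasminogen, differed by -0.61 and -0.53, and Serpinf2, the main plasma inhibitor of plasmin, by -0.55 and -0.50. Cpb2, a carboxypeptidase that protects fibrin from plasmin, had levels of 6.00 and 5.41 in the fasted and 6.07 and 6.06 in the refed pair, and differed by -0.59 and -0.01. With the authors' values Plg was at -0.27 and -0.40, Serpinf2 at -0.23 and -0.35 and Cpb2 at -0.29 and 0.12.

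**Figure D4:**
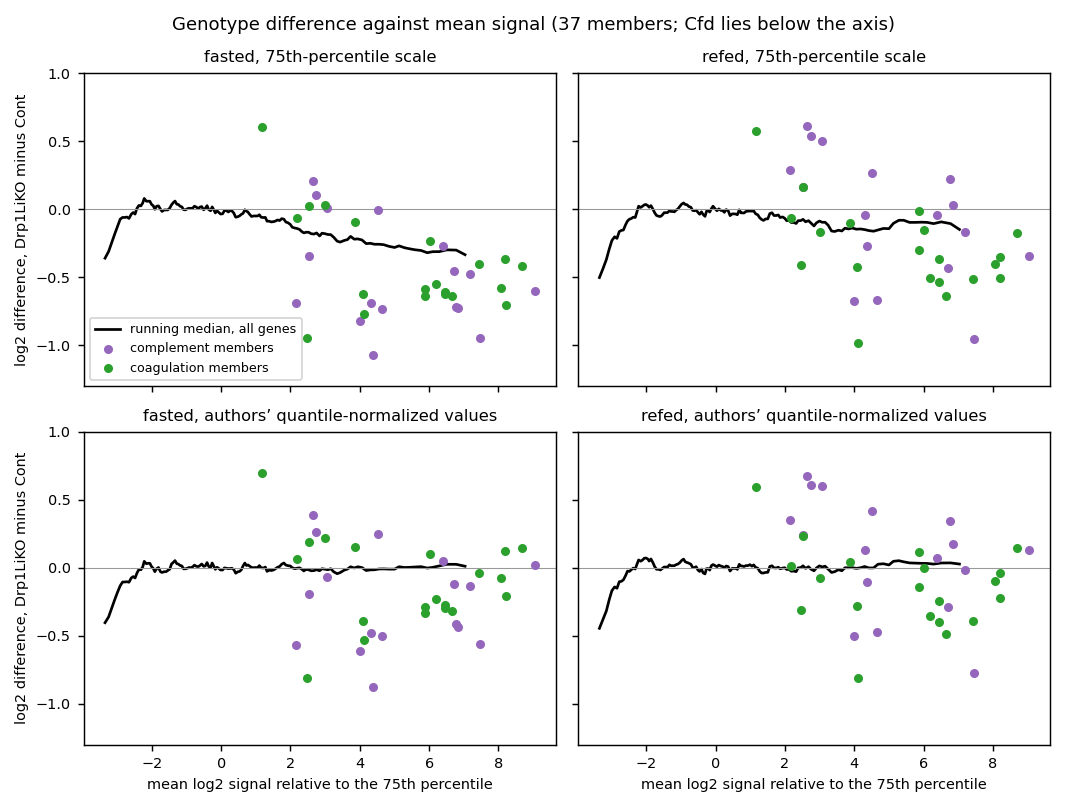
Log2 difference (Drp1LiKO minus Cont) of 37 members against their mean log2 signal, in fasted (left) and refed livers (right), on the 75th-percentile scale (top) and with the authors' values (bottom). The black line is the running median of all measured genes in a moving window of genes. Over the members' range of brightness the line falls in the top left panel and stays near 0 in the lower panels, and the bright members shift up with it, while among the dimmest genes, left of the members, the line lies below 0 in all 4 panels.

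The difference between the refed and the fasted comparison was then taken for each member, with an SE of 0.29 for measurement. It was above 0 by over 2 SEs for 6 members, C9, Hc, C8a, C4b, C8b and Cpb2, and below for 1, Cfd. Over all genes these shares were 5.84% and 5.89%. For C9 it was 0.98 ± 0.29, for Hc 0.94 ± 0.29, for C8a 0.81 ± 0.29 and for C4b 0.76 ± 0.29 (SE).

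With the authors' values C9, Hc, C8a, C4b and C8b passed again, with C1qc in place of Cpb2. The authors' fasted value of C1qc was -0.07. On the 75th-percentile scale it was 0.01, and -0.24 with the spots kept that the scanner software marked as outliers. Whether the authors' value includes those spots was not tested. Among the 18 complement members the median change between the comparisons was 0.36 on the 75th-percentile scale, and 16 (88.9%) were above 0. Among the 20 coagulation members it was 0.07 with 13 (65%) above. Over all genes the median was 0.04 with 54.5% above 0, and in the brightest 10% 0.18 with 75.3%. On the authors' scale the complement median was 0.23 with 15 of 18 above 0, and the coagulation median turned to -0.08 with 6 of 20 above, beside 0.01 and 51.8% over all genes and 0.02 and 54.1% in the brightest 10%. No test of the difference between feeding states exists, since each has 1 array per genotype.

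**Figure D5:**
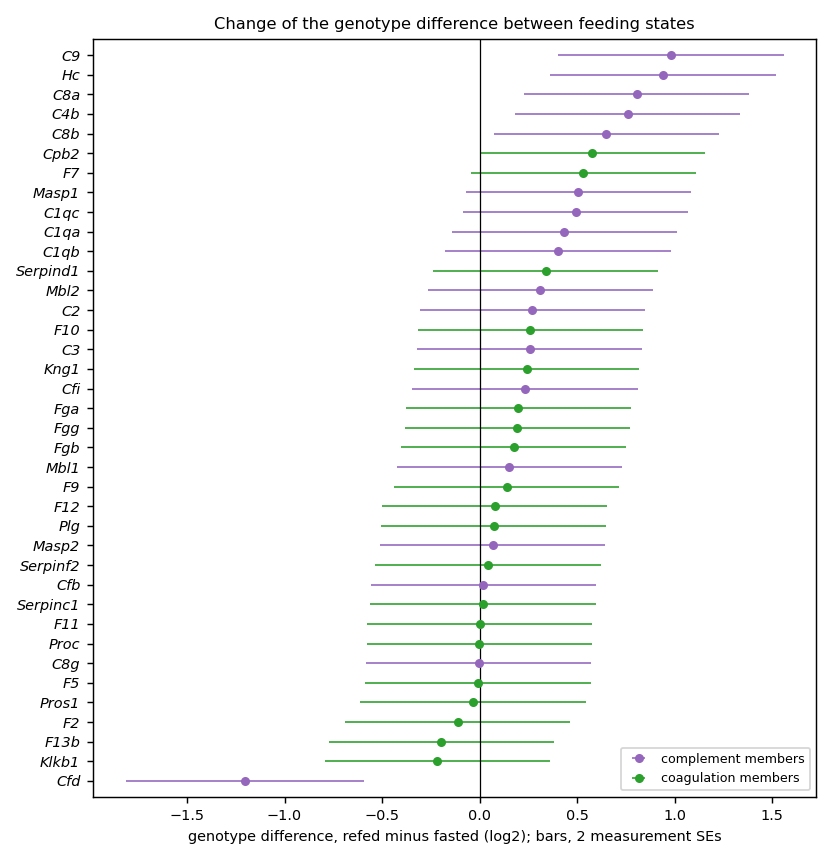
Change of the genotype difference from fasted to refed livers for each of the 38 members in log2 units, ordered by size, with bars of 2 measurement SEs. Complement members in purple fill the top of the plot, where C9, Hc, C8a, C4b and C8b clear 0, and Cfd stands alone at the bottom with -1.20.

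Refeeding was also compared within each genotype, which uses the same 4 arrays again, so the values stand beside the others and add no evidence to them. In Cont livers 1 member, Cfd, was called higher and 0 lower, against 1.6% and 2.37% of genes, and in Drp1LiKO livers again Cfd and 0 lower, against 2.85% and 3.02%. Cfd was 2.37 higher in the refed than in the fasted Cont liver (5.15-fold) and 1.16 higher in the refed than in the fasted Drp1LiKO liver (2.24-fold).

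The complement members' median refeeding difference was 0.12 in Cont and 0.54 in Drp1LiKO livers, and -0.04 and 0.16 with the authors' values. Over all genes these medians were 0.11 and 0.12, and in the brightest 10% 0.34 and 0.50, and with the authors' values 0.05 and 0.04, and 0.07 and 0.06. At 1.5-fold 8 members were higher after refeeding in Drp1LiKO livers, against 16.1% of all genes and 41.7% of the brightest 10%. The coagulation members' median was 0.01 and 0.15, and -0.23 and -0.32 with the authors' values, so its direction turned with the scale. C8b was at 0.31 in Cont and 0.96 in Drp1LiKO livers, and Fga, with -0.54 and -0.35, was lower after refeeding in both and kept that direction with the authors' values.

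Genotype and feeding state were then fitted together with limma over 16744 genes, with 1 residual degree of freedom. At a Benjamini-Hochberg adjusted p under 0.05 it called 0 genes for genotype and 0 for feeding, that is 0% for each, and so 0 members. By unadjusted p under 0.05 it passed 17 members for genotype, 16 lower and 1 higher, and 28.3% of all genes, and for feeding 2 members and 26.4% of all genes.

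The lowest adjusted p of a member for genotype was 0.072 in limma, for Cfd, with an effect of -5.67 ± 0.35 (SE) and a lower level in both feeding states. C8g followed with -0.95 ± 0.14 and an adjusted p of 0.102 in limma, and Klkb1 with -0.88 ± 0.15 and 0.105. Pros1 had 0.59 ± 0.14 and an adjusted p of 0.122.

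Restricted to genes measured above background on every array, limma called 8.4% of 14447 genes and 4 members lower, Cfd (adjusted p = 0.0113), C8g (0.0374), Klkb1 (0.0415) and Mbl1 (0.0474). The calls of all 4 thus depended on which other genes were in the fit.

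Other genes of the 2 systems were read from a list of 32 complement and 33 coagulation genes, of which 24 and 28 passed background on every array. Calls needed only the brighter array well above background. Of the 29 complement genes on the arrays 3 were called higher in fasted and 2 in refed livers, and 0 lower. Medians over the 24 were 0.01 and 0.08. Of the 33 coagulation genes 1 was called higher in fasted and 2 in refed livers, and 0 lower. Medians over the 28 were 0.03 and -0.07. Of the 14447 genes measured on every array, a stricter filter, 2.75% were called higher and 3.31% lower in fasted livers. In refed livers these shares were 3.12% and 3.99%.

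Itgax, an integrin chain of a complement receptor on myeloid cells, was called higher in both feeding states, at 1.16 and 1.19. Anxa2, a plasminogen receptor at the cell surface, was too, at 1.27 and 1.05. C1ra, a protease that acts with C1q, differed by 0.36 and 0.21, and Serping1, the inhibitor of that protease and of kallikrein, by -0.60 and -0.18.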

How the data were processed

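The authors deposited scanner output of Agilent 4x44K v2 arrays with a processed intensity per spot, background-subtracted within each array and not normalized between arrays, and a table of their own quantile-normalized intensity values of the same probes. Per the file headers Feature Extraction 10.7.1.1 was used, and the submitters' processing notes give 9.5.1.1. The study's methods name another array design and RNA kit than the labels, and the files carry the labels' design.

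Spots marked as outliers were left out, which removed 37 of 39429 probes, repeated spots were averaged, and log2 intensity was set relative to each array's 75th percentile. A gene was read from the probe well above background on the most arrays, then from the brightest. Of the 50 member probes, 48 were matched by RefSeq accession to the same symbol and 0 to another. Probe positions are mm9 from the files, and promoters are RefSeq windows of GRCm38.p6.

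Differences between 2 arrays have no test. The one test was limma 3.58.1 in R 4.3.3 (lmFit and eBayes, additive genotype and feeding state, Benjamini-Hochberg over genes that passed background on 2 or more arrays). The number of arrays limits the precision, and SEs cover measurement only. On simulated data of 16744 genes for the genotype comparison, limma recovered 199 of 200 genes changed 8-fold with 20 false calls, and 1 of 200 changed 2-fold. The 2-fold rule on 1 pair of arrays recovered 103 of 200 genes changed 2-fold, with 142 false calls. The simulated noise held measurement error only, with no variation between mice and no interaction of genotype and feeding. These counts therefore do not give the power or the false calls on the real arrays. Other software was Python 3.11.15, pandas 2.3.3, numpy 2.4.6 and matplotlib 3.10.9.

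The members and lists were chosen with earlier results of these data known. All 38 members could be named, other genes of the systems only if called alike in both feeding states or, for at most 5, beside a member they act on, and markers beside a member they move with. Alternatives were scaling to the median, the authors' values, normexp with an offset of 50, the median over probes, other filters for dim genes, a 1.5-fold threshold, and for limma an intensity trend or no feeding term. Keeping outlier spots and leaving out Cfd were chosen after seeing the data.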

Additional observations from a re-analysis of the deposited data

How the results depend on the processing

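No paired analysis was possible because each group has 1 array, so the groups share no second replicate number to block on. The limma genotype fit already pairs the arrays by feeding state. With 1 array per group no array could be left out of a pair, and the number of arrays limits every value. In fasted livers the members called lower numbered 2, and 4 with scaling to the median, 1 with the authors' values, 1 with normexp, 1 with the median over probes, 19 at 1.5-fold, where 1 was called higher, and 1 without Cfd. The complement and coagulation medians there became -0.30 and -0.14 with the authors' values. In refed livers 1 member was called higher and 6 lower at 1.5-fold, and 0 lower without Cfd, and the coagulation median became -0.12 with the authors' values.

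For refeeding, the members called higher in Drp1LiKO livers numbered 1, and 2 with scaling to the median, 0 with normexp, 8 at 1.5-fold and 0 without Cfd, and in Cont livers 0 without Cfd. With the authors' values the coagulation median was -0.23 in Cont and -0.32 in Drp1LiKO livers, and the complement median 0.16 in Drp1LiKO livers. The limma genotype fit called 0 members, and 1 with scaling to the median, 2 with normexp, 4 with only genes well above background on all arrays and 2 with an intensity trend. It called 0 of 16744 genes, and 319, 495, 1214 and 474 under these settings. Without a feeding term it called 1 gene and 0 members. For feeding it called 0 genes, and 15 with the stricter filter, with 0 members.

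By member, the 78 differences tried moved by more than 1 measurement SE in 33 cases with the authors' values, 5 with the median over probes, 3 with normexp, 1 with outlier spots kept and 0 with scaling to the median, and 0 that were called changed sign. Cfd moved most with normexp, to -4.16 in fasted and -5.65 in refed livers, and C1qc in fasted livers went to -0.24 with outlier spots kept. The cause was not tested.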
